A study of Mus musculus with 8 samples.

Results

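The RNAs of the cytosolic ribosomal proteins were followed gene by gene through the final maturation of mouse oocytes, with and without mutant BTG4. The members are the genes whose symbol is Rpl or Rps followed by a digit, or is Rplp0, Rplp1, Rplp2 or Rpsa, without the Rps6k kinases and without symbols of pseudogenes (-ps) or of predicted (Gm) and Rik loci. Of the 15962 genes listed in all 8 libraries, 85 were members, 51 named for the large subunit and 34 for the small subunit. A total of 88 such symbols appeared in any table, and the other 3 are given near the end. The family was selected from its symbols alone, but it was taken up with earlier results of these data known. Within the family, the members that did not follow the rest were selected on MII against GV, so their values in that comparison are a description and were not tested there.

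A ribosome joins a small subunit, which decodes the mRNA, to a large subunit, which forms the peptide bond. Each is built of ribosomal RNA and a set of proteins, most of which are needed in equal numbers. A growing oocyte stores ribosomes and the mRNAs for their proteins, and then stops transcription. When the fully grown oocyte resumes meiosis it removes a large part of its stored mRNA, and BTG4, a protein that brings the CCR4-NOT deadenylase to mRNA, takes part in that removal. Most mRNAs for ribosomal proteins begin with an unbroken stretch of pyrimidines at the 5′ end, through which their translation is controlled as a group.

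Polyadenylated RNA was measured by Smart-seq2 in 8 libraries of 15 oocytes each, 2 per group, all from ICR (CD1) female mice of 6 weeks primed with PMSG. The groups were fully grown immature oocytes (GV, for germinal vesicle), mature oocytes (MII) from in vitro culture, and mature oocytes that had been injected with cRNA for wild-type BTG4 (Btg4wt) or for a mutant in which 3 neighbouring residues, a threonine and 2 serines, were replaced by alanine (Btg4tm). The injected cRNA came from a vector, and no deletion of the resident Btg4 gene is given for any group. The study states that either injected form seemed to lower the amount of endogenous BTG4, which it left to be clarified. There was no group injected with an empty vector here, and no source used here says whether the 2 libraries of a group came from separate collections, so p-values measure the spread between these libraries.

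The deposited values are TPM, which are shares of a library per unit of gene length. Levels can thus be compared between genes, save those sharing much sequence with other genes, and the depth of a library is unknown. Levels below are TPM divided by a median-of-ratios factor per library (0.948 to 1.11), called scaled TPM, and differences are on log2(scaled TPM + 1), tested by limma over the 13968 genes that reached 1 TPM in 2 or more of the libraries. A call needs both an adjusted p-value (Benjamini-Hochberg) under 0.05 and a log2 difference beyond 1 in size. Reverse transcription started from an oligo(dT) primer, so fewer molecules and shorter poly(A) tails cannot be told apart, and neither can a change in 1 RNA and an opposite change in the rest. Replicates correlated at r = 0.982 to 0.987 across genes. All 11 oocyte markers were listed in every library. Of 14 cumulus and granulosa cell markers, 5 were listed in all tables, with a summed TPM of 25.7 to 33.8 over the 8 libraries, Amhr2, Foxl2 and Has2 among those in no table, and none of 3 blood cell markers was listed. Their sum was 25.7 and 26.3 in GV, 31.1 and 33.8 in MII, 26.8 and 32.2 in Btg4wt and 26.1 and 32.6 in Btg4tm. Of the 4 tested, Inha was called lower in MII and higher in Btg4tm (-1.72 and 1.74), at 10 scaled TPM or less in every library. Kitl (0.95 and -0.76) and Cyp19a1 (0.63 and -0.23) differed in the opposite directions and Star by -0.12 and 0.34, and none of these 3 was called. The part of these markers in the results below was not tested.

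The members were abundant in GV oocytes and scarce in MII oocytes. Their TPM summed to 16520 and 18283 in the 2 GV libraries and to 4940 and 4911 in the 2 MII libraries. In Btg4wt oocytes they summed to 4872 and 4788, close to MII, and in Btg4tm oocytes to 10863 and 12868. The Btg4tm libraries thus lay between the other groups, and no library of one level overlapped another level. As a share of all listed TPM, the members held 1.75% ± 0.125 (SD, n = 2) in GV, 0.493% ± 0.00212 in MII, 0.484% ± 0.00598 in Btg4wt and 1.19% ± 0.142 in Btg4tm.

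**Figure D1:**
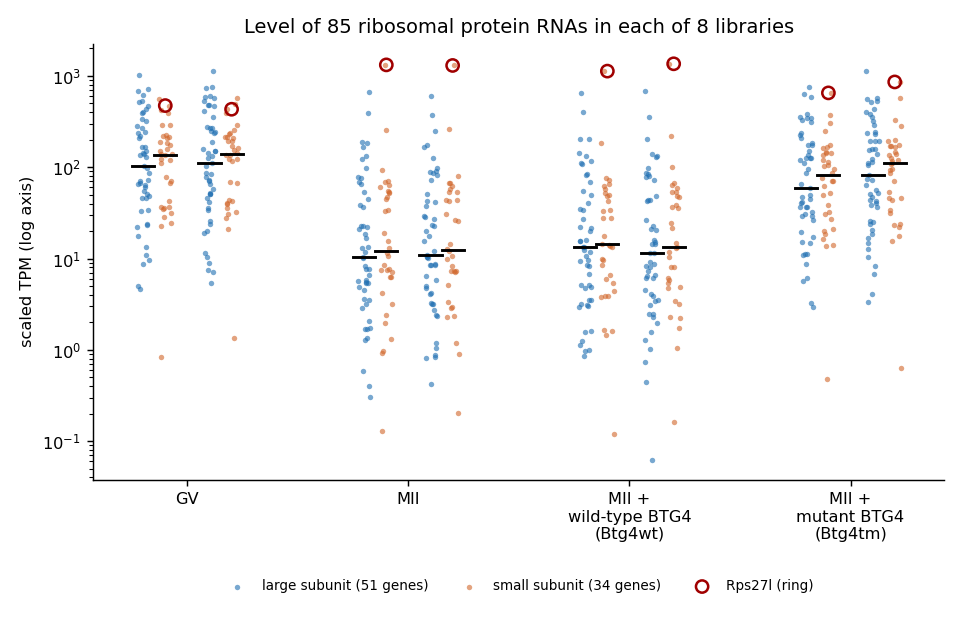
Scaled TPM (log axis) of the 85 members in each of the 8 libraries, grouped by condition, with 1 point per gene, blue for the large and orange for the small subunit, and black bars at the median of each subunit. The large subunit median was 104 and 110 in GV and 10.3 and 10.9 in MII, while Rps27l (ringed) was the highest point in all 4 MII and Btg4wt libraries.

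Of the 85 members, 84 passed the filter on low values. Rps10 did not, at 0.824 and 1.34 scaled TPM in GV and 0.13 and 0.204 in MII. In MII against GV, 71 of the 84 tested members were called lower and 1 higher. Among all genes tested, 24.0% were called lower and 12.5% higher in this comparison. The median difference was -3.0 over the members and -0.0017 over all genes tested, and the members spanned -5.59 to 1.54. For 42 members the difference was below -3, and for 16 it was below -4. These values are given as a description, since members were sorted into those that followed and those that did not on them.

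Members of both subunits fell. In MII against GV, 43 of 51 large subunit members and 28 of 33 tested small subunit members were called lower. Their medians were -2.87 and -3.07, with quartiles from -3.87 to -1.51 and from -3.90 to -1.55. The median level over the large subunit members was 107 scaled TPM in GV, 10.6 in MII, 11.1 in Btg4wt and 74.6 in Btg4tm. For the small subunit members it was 143, 12.8, 14.0 and 99.1 in the same order. The spread within either subunit was thus far wider than the distance between them, and no test was made between subunits because members are not replicates.

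The summed levels gave another picture of the subunits, which depended on single genes. The ratio of summed large to summed small subunit TPM was 1.86 and 1.92 in GV, 1.12 and 1.16 in MII, 1.34 and 1.11 in Btg4wt, and 1.81 and 1.81 in Btg4tm. Every GV and Btg4tm library therefore lay above every MII and Btg4wt library. An exact permutation test of 2 against 2 libraries cannot go below p = 0.33 (two-sided). Rps27l alone held 55.4% and 55.6% of the summed small subunit TPM in MII, against 8.71% and 7.64% in GV. Without it, an alternative chosen after seeing the data, the ratio turned round. It was then 2.04 and 2.08 in GV, 2.52 and 2.62 in MII, 2.88 and 2.63 in Btg4wt, and 2.18 and 2.2 in Btg4tm. Rpl37rt, annotated as a pseudogene, held 10.2% and 10.4% of the summed large subunit TPM in GV and 24.6% and 22.4% in MII. The ratio without both genes was not computed.

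**Figure D2:**
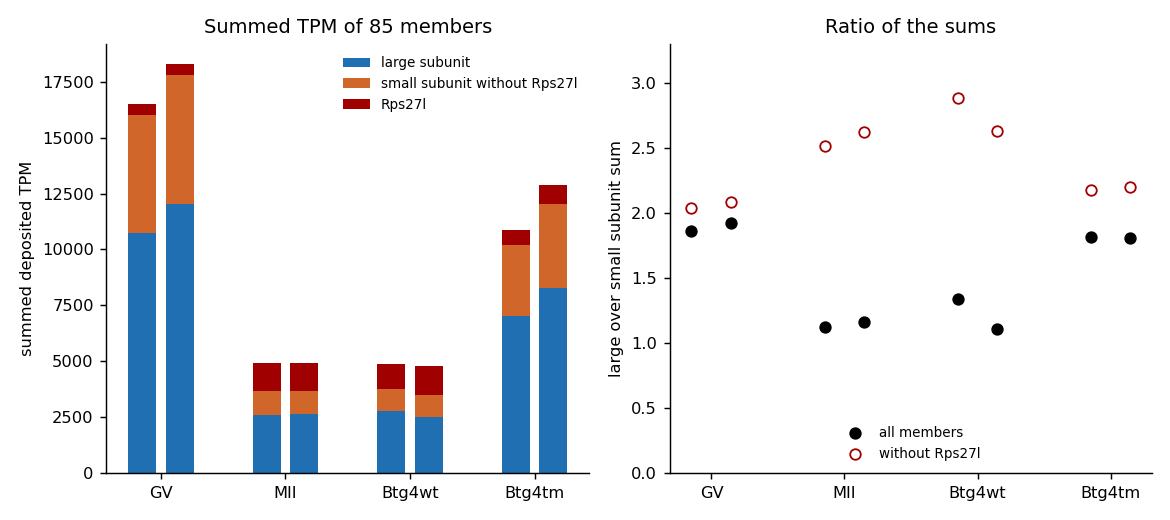
Left, summed deposited TPM of the members in each library, split into the large subunit, the small subunit without Rps27l, and Rps27l. Right, the ratio of the large to the small subunit sum in each library, with all members (filled) and without Rps27l (open): the filled points are lower in MII and Btg4wt than in GV and Btg4tm, and the open points are higher.

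The largest falls in MII, among called members whose mean level reached 10 scaled TPM, were of Rpl19, Rps27a, Rpl7, Rps27 and Rps15. Rpl19, a large subunit protein, stood at 526 and 589 scaled TPM in GV and at 10.3 and 10.9 in MII. It stood at 15.6 and 14.5 in Btg4wt and at 325 and 384 in Btg4tm. The Btg4tm libraries were thus far above both other MII groups and below GV. Its difference in Btg4tm against Btg4wt was 4.47 ± 0.122 (SE), with an adjusted p = 6e-07 by limma, the largest of any member.

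Rps27a encodes a small subunit protein fused to ubiquitin. Its level was 138 and 161 scaled TPM in GV, 4.19 and 2.87 in MII, 5.34 and 3.45 in Btg4wt, and 96.0 and 111 in Btg4tm. Its difference in Btg4tm against Btg4wt was 4.30 ± 0.215 (limma adjusted p = 3e-06). MII and Btg4wt overlapped, both lay below Btg4tm, and Btg4tm lay below GV without overlap. Btg4tm was again nearer to GV than to MII.

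Rpl7, a large subunit protein, went from 97.8 and 104 scaled TPM in GV to 1.73 and 3.16 in MII. Rps27, a zinc finger protein of the small subunit, went from 160 and 142 to 3.17 and 5.12. Rps15, in the head of the small subunit, went from 224 and 253 to 6.20 and 10.7. All were higher in both Btg4tm libraries than in both Btg4wt libraries, by 3.55 ± 0.287, 3.74 ± 0.22 and 3.53 ± 0.226 on the log2 scale. Of the 50-base stretches of the Rps27 transcript, 98.6% also occur in other annotated genes, among them the retrocopy Rps27rt, and reads that map equally well to several places were dropped by the authors, so its level is uncertain. By the same measure the share was 79.3% for Rpl19, 71.9% for Rps27a, 53.3% for Rpl7 and 39.0% for Rps15, so the levels of these are uncertain to a lesser degree.

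The most abundant members in GV fell too, with exceptions. Among the 5 highest of the large subunit were Rpl37rt, Rpl5, Rpl17 and Rpl19. Rpl5, which binds the 5S ribosomal RNA, stood at 725 and 729 scaled TPM in GV and at 68.8 and 89.4 in MII. It stood at 143 and 71.7 in Btg4wt and at 629 and 566 in Btg4tm. Its Btg4wt libraries lay far apart, and both Btg4tm libraries were far above them (difference 2.55 ± 0.276, adjusted p = 0.00014). Of the 50-base stretches of Rpl5, 93.8% also occur in other genes, and of those of Rpl17 78.7%, so these levels are uncertain. Of the small subunit, Rps29, Rps27l and Rps4x were among the 5 highest in GV. Rps29 stood at 559 and 579 in GV, 53.4 and 53.3 in MII, 48.6 and 48.1 in Btg4wt and 378 and 580 in Btg4tm, so that 1 of its 2 Btg4tm libraries reached the GV level.

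The proteins of the stalk, which recruits the elongation factors to the large subunit, did not fall together. Rplp0, which carries the stalk, stood at 471 and 537 scaled TPM in GV and at 64.8 and 81.5 in MII. Rpl12, at the base of the stalk, stood at 17.5 and 19.3 in GV and at 1.34 and 0.829 in MII. Rplp1 went from 392 and 475 to 165 and 167, and Rplp2 from 143 and 143 to 97.0 and 85.6. Their differences in MII against GV were -2.77 ± 0.139, -3.23 ± 0.226, -1.37 ± 0.177 and -0.64 ± 0.127, and Rplp2 was not called lower. In Btg4tm against Btg4wt, Rplp0, Rpl12 and Rplp1 were called higher, by 2.12 ± 0.139, 2.56 ± 0.226 and 1.67 ± 0.177. Rplp2 differed by 0.73 ± 0.127 and stayed under the fold threshold, though its adjusted p was 0.0017. Relative to its fall in MII, Rplp1 had the largest difference in Btg4tm against Btg4wt of the members called lower. It stood at 347 and 514 in Btg4tm and at 132 and 131 in Btg4wt. Rps6, the small subunit protein phosphorylated by S6 kinase, went from 150 and 170 in GV to 11.5 and 12.2 in MII and stood at 103 and 110 in Btg4tm (2.72 ± 0.149 over Btg4wt, adjusted p = 4.7e-06).

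Mutant against wild-type BTG4 was compared in libraries that the sorting by MII and GV did not use. A total of 65 of the 84 tested members were called higher in Btg4tm and 0 lower by limma, against 18.1% higher and 7.94% lower among all genes tested. The median difference was 2.36 over the members and 0.0077 over all genes. At an unadjusted p under 0.05 by limma, 79 members differed, where 7759 of all 13968 genes did. By subunit, 40 of 51 large and 25 of 33 small subunit members were called higher, with medians of 2.40 and 2.24. All 65 were among the 71 called lower in MII, and the 6 others of the 71 were above 0 as well. Of the 13 members not called lower in MII, 0 were called higher and 0 lower in Btg4tm by limma, a count that depended on the processing. With quantile normalization Rpl10l and Rps15a were called lower (-1.10 and -1.08). With the transcript length trend removed Rpl10l and Rps27l were called lower (-1.45 and -1.13). With mitochondrial scaling, which moved the median of all genes to 0.88 and called 6089 of all 13968 genes higher, 8 of the 13 were called higher and 0 lower, namely Rpl13, Rpl17, Rpl22, Rpl34, Rpl37rt, Rplp2, Rps2 and Rps28, at 1.12 to 1.81.

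Among the 5 largest differences between the injected groups were those of Rpl19 and Rps27a, given above, and of Rpl39 and Rpl38. Rpl38, known for its part in the translation of Hox mRNAs in the embryo, stood at 165 and 150 in GV, 5.83 and 8.69 in MII, 9.72 and 6.38 in Btg4wt and 121 and 154 in Btg4tm, where 1 library reached the GV range. Its difference between the injected groups was 3.95 ± 0.23 (limma adjusted p = 6e-06). Of the 50-base stretches of Rpl38, 52.1% also occur in other genes.

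The size of the fall in MII and the size of the difference between the injected groups went together across members. The 42 members whose fall exceeded 3 (log2) showed a median of 3.26 in Btg4tm against Btg4wt. Those that fell by 2 to 3, 13 in number, had a median of 2.13, and the 16 that fell by 1 to 2 had a median of 1.06. For the 13 others the median was 0.21. Across the 84 members the 2 differences had Pearson's r = -0.969 and Spearman's rho = -0.961, a description over genes that are not independent and that share base composition, length class and the same libraries within each comparison. Across all genes tested rho was -0.812, so an inverse relation was not particular to the family.

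**Figure D3:**
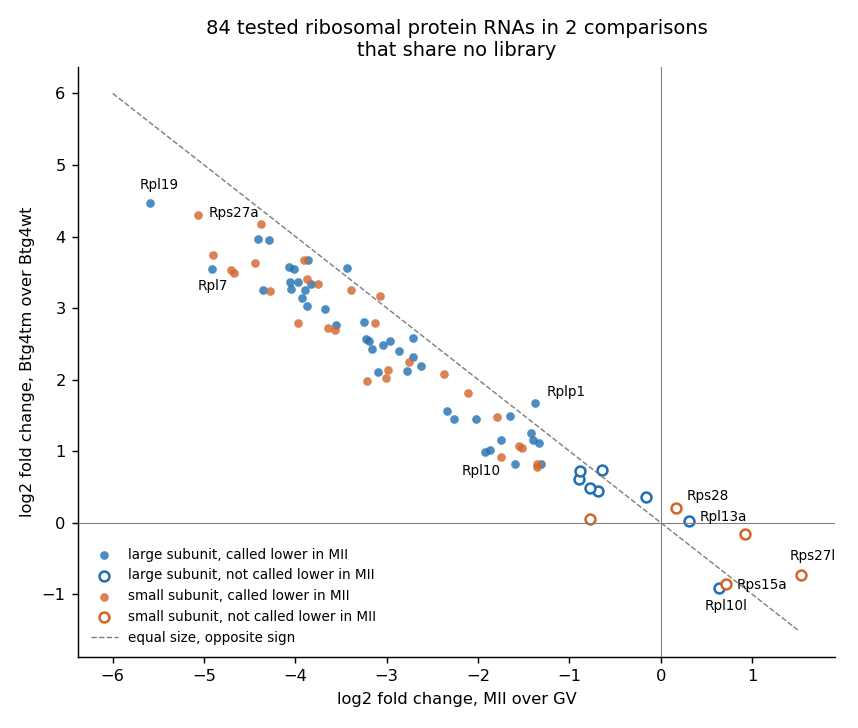
Log2 difference in MII against GV (x axis) and in Btg4tm against Btg4wt (y axis) for the 84 tested members, 1 point per gene, filled where called lower in MII and open where not, with the dashed line marking equal size and opposite sign. The 71 filled points lie between 0.77 and 4.47 on the y axis, most of them just below the line, and the open points lie between -0.91 and 0.73, with Rps27l, Rps15a and Rpl10l at the lower right, where they did not lie under mitochondrial scaling.

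The share of the decline found again in Btg4tm was taken as the difference in Btg4tm against Btg4wt over the difference in GV against MII, on the log2 scale. Over the 71 members called lower in MII its median was 81.2%, with quartiles of 71.9% and 87.4%. The median was 81.5% over 43 large subunit members and 76.0% over 28 small subunit members. It was lowest for Rpl10 (51.4%), Rpl6l (51.6%) and Rps26 (52.3%). It was over 100% for 3 members, Rplp1 (122%), Rpl7a (104%) and Rps25 (103%). For these the mean in Btg4wt lay below MII, with differences of -0.33, -0.66 and -0.34, none of them called. Their means in Btg4tm did not pass GV, with differences of -0.03, -0.53 and -0.24. The Btg4tm libraries were not alike in this respect, since 74 of 84 members were higher in replicate 2 than in replicate 1, by a median of 0.32 on the log2 scale, against 54.3% of all genes tested. Without Btg4tm replicate 2 the median share was 73.7%.

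With mutant BTG4 the members did not quite reach the GV level. Under this scaling 80 of 84 were below GV, with a median of -0.52 over the members and -0.08 over all genes tested. In 66 of 85 members both Btg4tm libraries lay below both GV libraries, against 34.2% of all genes tested. A call was made for 1 member, Rps27, which was 1.02 lower (SE 0.22, limma adjusted p = 0.025), where 1.02% of all genes tested were called lower and 1.02% higher. Among those above GV were Rps27l, Rpl23 and Rpl13a, by 0.73, 0.14 and 0.06, and none was called. This comparison shares the GV and the Btg4tm libraries with those above. Its count of calls depended on the scaling more than the others did, with 57 members called lower when libraries were scaled to the mitochondrially encoded genes and 10 with TPM as deposited. Over all 13968 genes tested, 2972 were called lower under mitochondrial scaling, with a median of -0.64, and 287 with TPM as deposited.

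Injection of wild-type BTG4 made little difference to the members beside uninjected MII oocytes. By limma 0 of 84 members were called in either direction, and 0.0% of all genes tested were called higher and 0.0% lower. At an unadjusted p under 0.05, 8 members differed, where 1655 of all 13968 genes did. The differences ran from -0.66 for Rpl7a to 0.58 for Rps15 with a median of -0.02, and Rpl19 was among the 8, at 0.47 (unadjusted p = 0.0047, adjusted p = 0.24 over all genes by limma). Ranked by level, the members stood in nearly the same order in both groups (Spearman's rho = 0.99 over 85 genes, a description).

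The 13 members not called lower in MII were 8 of the large and 5 of the small subunit. Just inside the threshold were Rpl4 (-1.31), Rpl41 (-1.34) and Rps19bp1 (-1.35), and just outside it Rpl17 (-0.89), Rpl34 (-0.88) and Rps2 (-0.78). With TPM as deposited Rpl17 and Rpl34 were also called lower. Scaling to the mitochondrially encoded genes moved the median of all genes to -1.74 in MII against GV, and under it 83 of 84 members were called lower and 0 higher, with 11403 genes called lower and 7 higher over all genes.

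Rps27l, a paralog of Rps27 known as a target of p53, was called higher in MII. It stood at 474 and 432 scaled TPM in GV, 1322 and 1303 in MII, 1130 and 1359 in Btg4wt, and 652 and 860 in Btg4tm. Both MII groups were thus above Btg4tm, and Btg4tm above GV, with no overlap between these 3 levels. Its difference in MII against GV was 1.54 ± 0.148, and -0.68 under mitochondrial scaling, which is 1.06 above the median of all genes under that scaling. In Btg4tm against Btg4wt it was 0.73 lower on the log2 scale (difference -0.73 ± 0.148, limma adjusted p = 0.004), under the fold threshold and so not called. This difference was 0.36 under mitochondrial scaling. With the transcript length trend removed it was -1.13 and Rps27l was called lower.

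The contrast with its partner was the widest of the 8 pairs compared. Rps27l RNA was 2.97 and 3.04 times as abundant as Rps27 RNA in GV, and 417 and 254 times in MII. The ratio was 258 and 287 in Btg4wt and 10.5 and 9.91 in Btg4tm. These ratios compare genes within a library, so they do not depend on the scaling between libraries, but the level of Rps27 is uncertain for the reason given above, whereas 22.4% of the 50-base stretches of Rps27l occur in other genes. The coding sequences of both genes have 255 bases, of which 194 (76.1%) are identical. The gene Rps27 (ENSMUSG00000090733) lies on the minus strand of chromosome 3 from 90212522 to 90213651 (GRCm38, GENCODE M21) and Rps27l (ENSMUSG00000036781) on the plus strand of chromosome 9 from 66946086 to 66949516. The first 90 coding bases of each are shown to let the reader see how far the pair can be told apart by reads, with the 24 bases at which Rps27l differs from Rps27 in capitals.
Rps27: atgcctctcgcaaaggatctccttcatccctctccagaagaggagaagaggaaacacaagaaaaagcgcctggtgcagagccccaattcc
Rps27l: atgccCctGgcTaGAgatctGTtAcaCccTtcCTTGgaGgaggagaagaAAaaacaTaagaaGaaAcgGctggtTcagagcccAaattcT

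Rpl10l was the other paralog that went against its partner. It is an autosomal, intronless copy of the X-linked Rpl10 and is best known from the testis. Its level was 23.2 and 23.8 scaled TPM in GV, 36.4 and 38.1 in MII, 27.0 and 43.8 in Btg4wt, and 17.0 and 18.7 in Btg4tm. Rpl10 went from 238 and 272 in GV to 76.5 and 91.7 in MII. It stood at 118 and 78.6 in Btg4wt and 151 and 193 in Btg4tm. Rpl10l was thus lower in both Btg4tm libraries than in any other, and its difference from Btg4wt was -0.91 ± 0.206 (limma adjusted p = 0.0066), under the fold threshold, and 0.13 under mitochondrial scaling. Its difference in MII against GV was 0.64 ± 0.206, and -1.5 under mitochondrial scaling. With the transcript length trend removed Rpl10l was called higher in MII than GV (1.22) and lower in Btg4tm than Btg4wt (-1.45). The coding sequences of the pair are identical at 547 of 645 bases, and 7.60% of the 50-base stretches of Rpl10l occur in another gene. For Rpl10 itself the share is 92.1%, so its level is uncertain. The first 90 coding bases are given for both, with the 13 bases of Rpl10l that differ in capitals.
Rpl10: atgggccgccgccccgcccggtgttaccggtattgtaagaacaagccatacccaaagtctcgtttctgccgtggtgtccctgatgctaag
Rpl10l: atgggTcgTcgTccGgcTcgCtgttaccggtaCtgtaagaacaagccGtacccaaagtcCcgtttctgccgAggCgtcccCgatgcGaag

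Other paralogs moved with their partners or fell more. Rpl39l, an autosomal copy of the X-linked Rpl39 whose protein lines the exit tunnel, stood at 321 and 358 scaled TPM in GV, 22.8 and 28.5 in MII, 34.7 and 26.3 in Btg4wt and 211 and 290 in Btg4tm. Rpl39 stood at 219 and 236 in GV, 7.76 and 12.2 in MII, 13.2 and 6.63 in Btg4wt and 138 and 192 in Btg4tm. Rpl39l was above Rpl39 in all 8 libraries, and both were called higher in Btg4tm, by 2.99 ± 0.194 and 3.97 ± 0.309. Rpl39l shares no 50-base stretch with another annotated gene. Their coding sequences of 156 bases differ at 10 of the first 90, in capitals in the line for Rpl39l.
Rpl39: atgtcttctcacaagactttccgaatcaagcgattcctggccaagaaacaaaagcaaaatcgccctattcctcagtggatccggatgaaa
Rpl39l: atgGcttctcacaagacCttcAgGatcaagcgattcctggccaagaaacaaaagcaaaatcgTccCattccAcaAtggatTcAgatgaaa

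Rpl22, an RNA-binding protein of the large subunit, and its paralog Rpl22l1 were close in GV, at 11.0 and 11.5 against 9.58 and 8.90 scaled TPM. In MII Rpl22 stood at 11.7 and 8.42, overlapping GV, whereas Rpl22l1 stood at 0.302 and 0.869. In Btg4tm Rpl22l1 stood at 5.72 and 6.79, against 0.975 and 0.0621 in Btg4wt (difference 2.32 ± 0.321, adjusted p = 0.00052), and Rpl22 differed by 0.36 ± 0.184 (adjusted p = 0.14). Here the copy was called lower and the gene was not, the reverse of the pairs of Rps27 and Rpl10, and under mitochondrial scaling Rpl22 was also called lower in MII (-2.18).

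**Figure D4:**
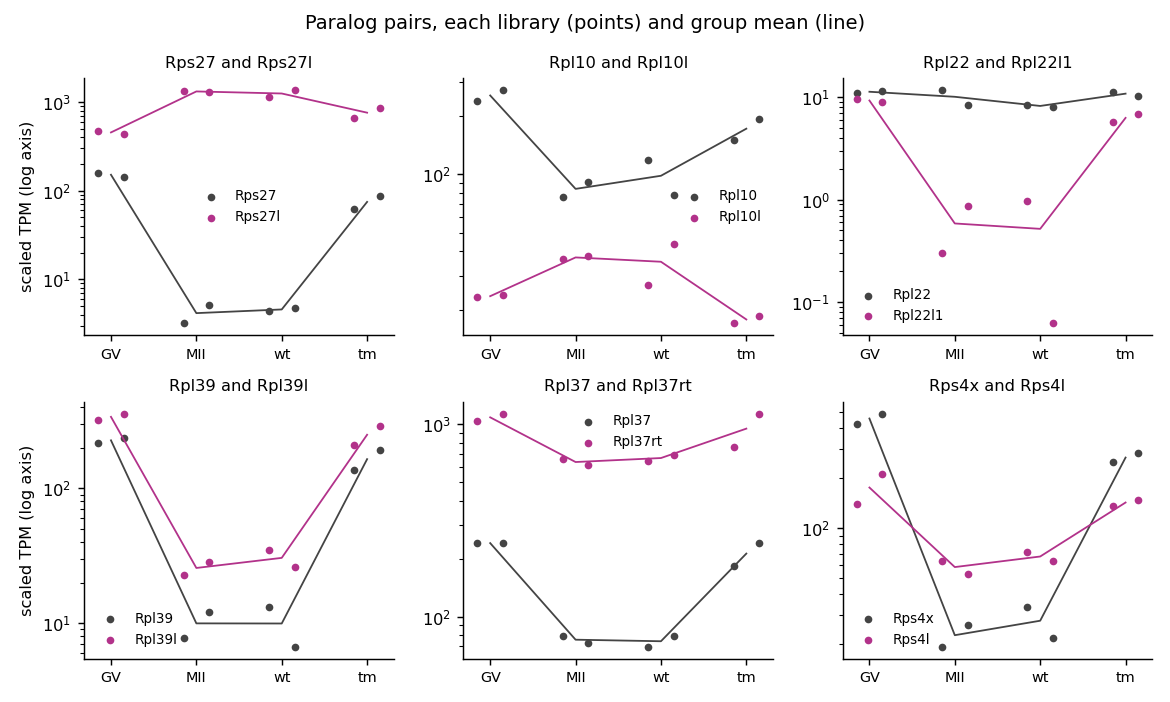
Scaled TPM (log axis) of 6 paralog pairs in the 8 libraries, with points for libraries, lines through group means, and wt and tm for Btg4wt and Btg4tm. Under this scaling, and not under mitochondrial scaling, Rps27l and Rpl10l run opposite to Rps27 and Rpl10, while Rpl22l1 dips where Rpl22 is nearly level and the pairs of Rpl39, Rpl37 and Rps4x dip together to different depths.

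Rpl37rt, annotated in GENCODE M21 as a transcribed processed pseudogene of Rpl37, had the highest level of any member in GV, at 1035 and 1129 scaled TPM. It stood at 659 and 610 in MII, 644 and 687 in Btg4wt and 763 and 1128 in Btg4tm. Rpl37 itself went from 240 and 241 to 78.9 and 72.8 in MII and stood at 184 and 241 in Btg4tm. The coding sequence of Rpl37 matches the Rpl37rt transcript at 293 of 294 bases, so reads from the coding part cannot be assigned with certainty to either. The other copies annotated as pseudogenes were Rpl6l (98.7% identical to the coding sequence of Rpl6) and Rps4l (80.1% identical to Rps4x). Rps4l went from 139 and 212 in GV to 63.5 and 53.3 in MII, while Rps4x went from 426 and 487 to 19.3 and 26.2, so that Rps4l exceeded Rps4x in MII and Btg4wt only. Without these 3 loci, a choice made after seeing the data, 69 members were called lower in MII and 64 higher in Btg4tm.

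Rps15a, a small subunit protein, stood at 35.8 and 44.0 scaled TPM in GV, 68.7 and 62.8 in MII, 65.3 and 67.7 in Btg4wt and 30.4 and 43.6 in Btg4tm. Its libraries fell into a low level in GV and Btg4tm and a high level in MII and Btg4wt, without overlap. Btg4tm was 0.85 lower than Btg4wt on the log2 scale (difference -0.85 ± 0.179, limma adjusted p = 0.0046) and 0.21 higher under mitochondrial scaling. Its difference in MII against GV was 0.71 ± 0.179, and -1.46 under mitochondrial scaling.

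Of the members not called lower, Rps28, Rpl13a and Rpl22, given above, were nearest to level under this scaling. Rpl13a, which can leave the ribosome to repress translation of inflammatory mRNAs, stood at 8.80 and 7.57 scaled TPM in GV, 10.2 and 10.5 in MII, 8.52 and 8.18 in Btg4wt and 8.76 and 8.34 in Btg4tm. Its difference was 0.31 ± 0.159, and -1.69 under mitochondrial scaling. Rps28 stood at 42.7 and 42.3 in GV, 51.8 and 44.0 in MII, 33.1 and 38.5 in Btg4wt and 32.3 and 53.1 in Btg4tm, with overlap between the injected groups, and its difference in MII against GV was 0.16 ± 0.216 (-2.0 under mitochondrial scaling). Rps2 stood at 77.3 and 122 in GV and 47.6 and 66.5 in MII, and unlike most members it was no higher in Btg4tm (51.9 and 46.1) than in Btg4wt (62.6 and 35.6). Rpl17, near the exit of the tunnel, stood at 686 and 750 in GV, 394 and 378 in MII, 405 and 355 in Btg4wt and 584 and 573 in Btg4tm. Rpl13 and Rpl34 were lower in MII than GV by 0.69 and 0.88, and their differences in Btg4tm against Btg4wt were 0.44 and 0.73. Rpl17, Rpl13, Rpl34 and Rplp2 differed in the direction of most members, at a smaller size. Their groups did not overlap in MII against GV or in Btg4tm against Btg4wt. Such a lack of overlap was common, since 41.6% of all genes tested had both GV libraries above both MII libraries. Both Btg4tm libraries lay above both Btg4wt libraries for 37.6%.

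**Figure D5:**
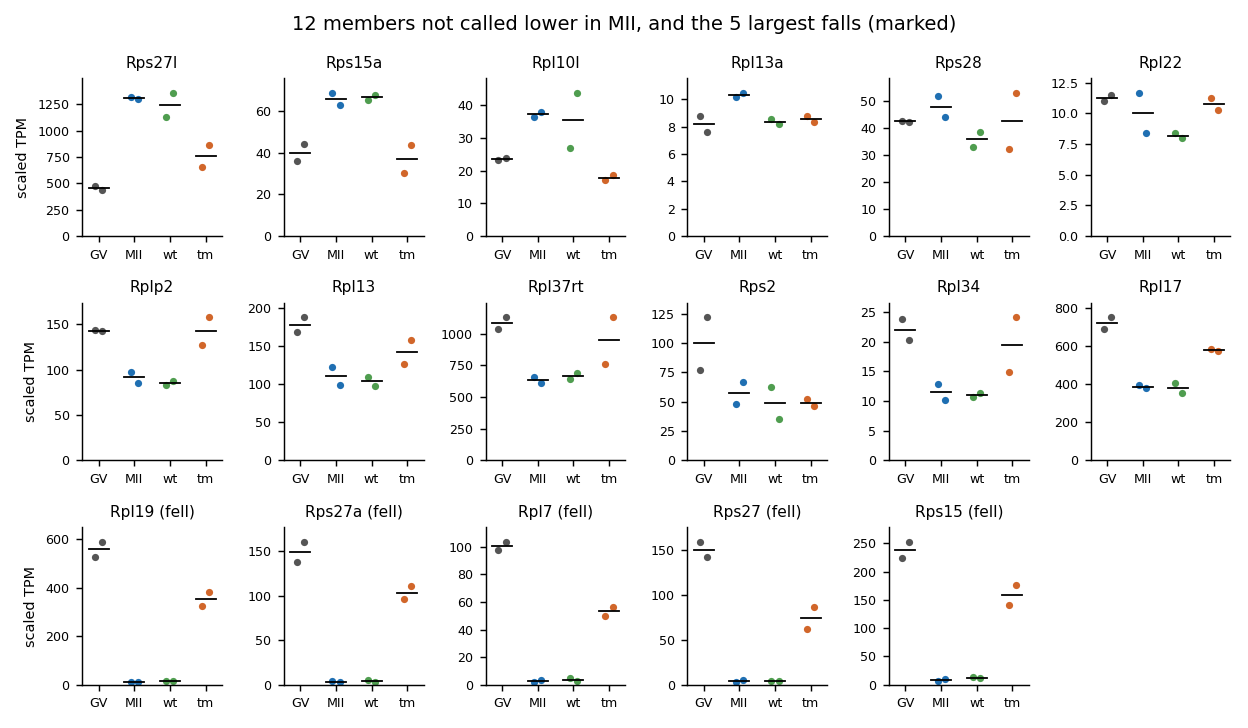
Scaled TPM in each library (points; bars are group means, n = 2; linear axes from 0) of 12 of the members not called lower in MII, in order of their difference, and of the 5 with the largest falls, with wt and tm for Btg4wt and Btg4tm. Rps27l, Rps15a and Rpl10l are high in MII and Btg4wt and lower in GV and Btg4tm under this scaling, the reverse of Rpl19, Rps27a, Rpl7, Rps27 and Rps15, while under mitochondrial scaling these 3 were lower in MII than in GV.

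The annotated transcripts of the 13 were read for features that the sorting did not use. The members as a family have short coding sequences, with a median coding length of 456 bases for the 69 coding members called lower and 474 for the others, where all genes tested with a coding transcript had a median of 1344. Across the 81 coding members, coding length and the difference in MII against GV had a Spearman's rho of -0.05 (0.31 across all genes tested). For GC content rho was 0.01 over 84 members. For the level in GV it was -0.10, but this level enters the difference itself and so was used by the sorting. The share of 50-base stretches found in other genes had a rho of -0.29. A total of 44 of the 85 members share over 50% of these stretches with another gene. Over the members that share less than that, the medians in MII against GV were -2.34 for 23 large and -2.88 for 18 small subunit members, and in Btg4tm against Btg4wt 1.57 and 2.05. The gaps between these medians and those over all members were not tested.

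The annotated starts were read because the pyrimidine stretch marks most of these mRNAs. In RefSeq (GRCm38.p6), starts were found for 63 members, and 27 of them (42.9%) had an unbroken run of at least 8 C or T on the gene's strand in the window from 15 bases before the start to 15 bases from it, against 13.9% of 27025 genes. The run was there in 20 of 51 members called lower in MII (39.2%) and in 6 of 11 tested members that were not (54.5%). A missing run says only that the window does not hold one, since the annotated start may lie off the true one. The windows are printed with the longest pyrimidine run in capitals. Members that did not fall are Rps27l (chr9:66946071-66946100, plus strand), Rps15a (chr7:118116133-118116162, minus strand) and Rpl13a (chr7:45128731-45128760, minus strand). Rpl19 (chr11:98026909-98026938, plus strand) and Rps27 (chr3:90213634-90213663, minus strand) were among the largest falls. Rpl38 (chr11:114668565-114668594, plus strand) was among the largest differences between the injected groups. Windows with a run shorter than 8 are shown as well, from Rps28 (chr17:33824548-33824577, minus strand) and Rpl22 (chr4:152324421-152324450, plus strand), which were not called lower, and from Rps15 (chr10:80292416-80292445, plus strand), among the largest falls. Members with and without the run thus stood on both sides.
Rps27l: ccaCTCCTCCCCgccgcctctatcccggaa
Rps15a: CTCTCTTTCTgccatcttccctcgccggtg
Rpl13a: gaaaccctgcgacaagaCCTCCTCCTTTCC
Rpl19: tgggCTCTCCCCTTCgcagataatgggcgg
Rps27: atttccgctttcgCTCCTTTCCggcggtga
Rpl38: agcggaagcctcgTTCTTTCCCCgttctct
Rps28: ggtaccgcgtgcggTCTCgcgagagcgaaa
Rpl22: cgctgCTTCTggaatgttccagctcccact
Rps15: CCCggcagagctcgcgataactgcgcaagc

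Near the 3′ end, the sequence to which the cytoplasmic polyadenylation factor CPEB binds was searched as TTTTAT or TTTTAAT on the transcript's own strand. The window was the last 100 bases of the annotated transcript, or the whole 3′ UTR where that was shorter. The element was present in 6 of 69 coding members called lower in MII (8.70%) and in 3 of 12 that were not (25%), against 19.3% of 11255 coding genes tested. The 3 were Rps27l, Rpl13a and Rps2, and the 6 were Rpl31, Rpl5, Rpl27a, Rps24, Rpl32 and Rps3a1. A match is a description of letters and not a measured site. The median 3′ UTR length was 89 bases for the members called lower, 116 for the others and 863 for all coding genes tested. The windows were thus often shorter for members, and the shares are not on equal terms. The stretches below are from Rps27l (chr9:66949483-66949512, plus strand), Rpl13a (chr7:45125567-45125596, minus strand) and Rps2 (chr17:24721884-24721913, plus strand), with the element in capitals. For Rps27 only a 3′ UTR of 54 bases was searched, without a match. Its stretch (chr3:90212671-90212700, minus strand) has the polyadenylation signal AATAAA in capitals, so that the pair Rps27 and Rps27l can be seen side by side (GRCm38, GENCODE M21).
Rps27l: gtcagtttttcaataaagTTTTAATtatgg
Rpl13a: aggaTTTTATgtgctaataaattatttgac
Rps2: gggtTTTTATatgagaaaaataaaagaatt
Rps27: gaaccttcccAATAAAcacgttttggatat

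Some symbols of the rule stand outside the mature ribosome or outside the comparison. Rps19bp1, a nucleolar protein that binds Rps19, went from 215 and 230 scaled TPM in GV to 93.4 and 80.1 in MII, and Rpl7l1, a factor of large subunit assembly, from 50.6 and 46.1 to 4.90 and 4.18. Without these 2, 69 members were called lower in MII and 64 higher in Btg4tm. Rpl36al and Rps3a3 were listed only in the tables of uninjected oocytes, at 1.15 and 2.92 and at 2.35 and 1.30 deposited TPM in GV and at 0.217 or less and 0.553 or less in MII. Rps27rt was listed only in the tables of injected oocytes, at 8.86 and 9.30 deposited TPM in Btg4tm and at 0 and 0.639 in Btg4wt. The 42 loci of the family named as pseudogenes (-ps) and listed in all tables summed to 1093 and 1076 TPM in GV, 328 and 327 in MII, 351 and 307 in Btg4wt and 774 and 828 in Btg4tm. Relative to the members these sums were 5.89% to 7.20% in the 8 libraries, and of 41 tested loci 22 were called lower and 3 higher in MII, and 15 higher and 2 lower in Btg4tm, beside 24.0% and 12.5%, and 18.1% and 7.94%, of all genes tested.

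Ribosome components and helpers that the symbols do not capture did not move as one. Fau, whose product carries a small subunit protein behind a ubiquitin-like domain, went from 503 and 489 scaled TPM in GV to 138 and 142 in MII. It was higher in Btg4tm than in Btg4wt by 1.49 ± 0.101 (limma adjusted p = 1.3e-05). Rack1, a scaffold on the small subunit, stood at 51.7 and 49.2 in GV and 79.5 and 70.1 in MII and was not called in either comparison. Of 7 tested chaperones of single ribosomal proteins, 2 (Grwd1, for Rpl3, and Tsr2, for Rps26) were called lower in MII and 1 (Bccip) higher, and Grwd1 was the 1 called higher in Btg4tm. These counts are near the shares among all genes tested, 24.0% and 12.5% in MII and 18.1% in Btg4tm. The clients of these 2, Rpl3 and Rps26, were both called lower in MII, and Rpl3 but not Rps26 was called higher in Btg4tm, by 3.04 against 0.92. Of 9 tested regulators of pyrimidine-tract mRNAs, 0 were called lower and 2 higher in MII, namely Larp4 and Larp4b, which bind poly(A)-binding protein. The same 2 were called lower in Btg4tm (differences -1.33 and -1.44). Of all genes tested 12.5% were called higher in MII and 7.94% lower in Btg4tm. Larp1 and Tia1 stayed under 1 TPM in every library and were not tested. The medians of the chaperones and of the regulators in MII against GV were -0.23 and 0.47.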

How the data were processed

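Smart-seq2 libraries of 15 oocytes were grouped by their sample labels. Per the labels' processing notes and the study's methods, the authors trimmed reads with Trim Galore 0.6.10, aligned them with HISAT2 2.2.0 to GRCm38, counted exonic reads per GENCODE vM25 gene with featureCounts 2.0.6, without strand and without reads of mapping quality under 10, and deposited TPM per symbol. The gene lengths behind the TPM and the filter on listed genes are not given in the sources used here. TPM keep no depth, so no counting error could be computed, and precision rests on 2 libraries per group.

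The members and gene lists were chosen with earlier results of these data known. Deposited TPM were scaled by median of ratios and fitted as log2(TPM + 1) with limma 3.58.1 in R 4.3.3 (eBayes with trend, all 8 libraries). The study's own count test could not be run on TPM. On simulated data the fit was tested with 200 changed genes. Named were members not called lower in MII (the 12 highest), the 5 largest falls, the 5 largest and 5 smallest differences between injected groups, the 5 most abundant in GV per subunit, paralog pairs, the stalk and Rps6. Rpl17, a 13th member not called, is named for its level. Transcripts came from GENCODE M21 (GRCm38), in which all 85 members matched. The alternatives were other scalings (none, quantile, or to the mitochondrial transcripts), no filter or 5 TPM, a pseudocount of 0.1, 4 libraries, a replicate block, no trend, no minimum fold change, transcript length removed by loess (span 0.3), single libraries left out, and other member sets. With 1 library left in a group, that library is assumed to vary like the other groups. A few genes that the rule names are not reported here by name, though they enter the counts, sums and medians.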

Additional observations from a re-analysis of the deposited data

Results flagged for a closer look

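Rps27rt, a retrocopy of Rps27 that is listed only in the tables of the injected oocytes and so entered no comparison, had a mean deposited TPM of 9.08 in Btg4tm, above both Btg4wt libraries (0 and 0.639). It is flagged as a signal in data outside the comparisons.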

How the results depend on the processing

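The counts of members called lower in MII (63 to 83) and higher in Btg4tm over Btg4wt (56 to 79) stayed within 1.5 times the main counts under every alternative run, and 0 members were called in Btg4wt against MII under each. Leaving out 1 library gave 71 to 72 and 61 to 69 calls, and 0 to 6 in Btg4tm against GV, where 0 remained without GV replicate 1, GV replicate 2 or Btg4tm replicate 1. That last count moved most: it was 10 with TPM as deposited, 3 with quantile normalization, 57 with mitochondrial scaling, 2 with a pseudocount of 0.1, 0 without trend and 17 with no minimum fold change. Of all 13968 genes tested, 287, 101, 2972, 129, 100 and 521 were called lower in the same order. The scalings moved the median of all genes in MII against GV to -0.13 (as deposited), 0.28 (quantile) and -1.74 (mitochondrial). The cause of these changes was not tested.

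Median differences in MII against GV for the large and small subunit were -2.67 and -2.82 with quantile normalization, -4.78 and -5.01 with mitochondrial scaling, -3.21 and -3.21 with a pseudocount of 0.1, -2.34 and -2.64 with the length trend removed, and -2.34 and -2.88 over members mostly found at no other gene; the small subunit median was -3.22 with TPM as deposited. In Btg4tm against Btg4wt they were 2.17 and 2.04 with quantile normalization, 3.25 and 3.3 with mitochondrial scaling, 1.88 and 1.78 with the length trend removed, and 1.57 and 2.05 over members mostly found at no other gene, and the small subunit median was 2.47 without Rps19bp1 and Rpl7l1. Leaving out 1 library, the medians ran from -2.97 to -2.61 (large) and from -3.10 to -3.03 (small) in MII against GV, and from 2.11 to 2.43 and from 2.15 to 2.34 in Btg4tm against Btg4wt. The median share regained was 67.0% with mitochondrial scaling and 73.7% to 85.1% without single libraries.

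The ratio of summed subunits was 1.96 in GV, 1.19 in MII and 1.87 in Btg4tm without Rps19bp1 and Rpl7l1. Without Rps27l it was 2.06, 2.57, 2.76 and 2.19 in GV, MII, Btg4wt and Btg4tm, and without the loci annotated as pseudogenes 1.75, 0.897, 0.95 and 1.65, both chosen after seeing the data. Single libraries gave 1.86 to 1.92 in GV, 1.12 to 1.16 in MII, 1.11 to 1.34 in Btg4wt and 1.81 to 1.81 in Btg4tm.

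Under mitochondrial scaling Rpl10l (-1.5), Rpl13a (-1.69), Rps15a (-1.46), Rps27l (-0.68) and Rps28 (-2.0) turned from higher to lower in MII. In Btg4tm against Btg4wt it turned Rpl10l (0.13), Rps15a (0.21) and Rps27l (0.36) from lower to higher. Differences near 0 also changed sign without a call. With quantile normalization these were Rpl22 in MII against GV (0.17), and Rpl13a (-0.19), Rps2 (-0.18) and Rps28 (-0.010) in Btg4tm against Btg4wt. With the length trend removed they were Rpl22 in MII against GV (0.19), and Rpl13 (-0.076), Rpl13a (-0.51), Rpl22 (-0.029), Rpl37rt (-0.014), Rps2 (-0.48) and Rps28 (-0.12) in Btg4tm against Btg4wt. Leaving out 1 library, Rpl22 ran from -0.38 to 0.049 in MII against GV, and in Btg4tm against Btg4wt Rpl13a ran from -0.0021 to 0.062, Rps2 from -0.35 to 0.45 and Rps28 from -0.14 to 0.56. Of 1254 values of single named members under alternatives, 1177 kept direction and call and 24 changed sign. Same-numbered libraries did not deviate together (r from -0.05 to 0.06 over pairs of groups). With 2 libraries per group this cannot tell whether same-numbered libraries were collected together. The replicate block gave 71 and 65 calls as before.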
